A study of Caenorhabditis elegans with 4 samples.

Results

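The sites described here are narrow ChIP-seq peaks that reach a score of 3100, called the limiting score here. They were chosen by their score and width in the peak list of ChIP replicate 2, as nuclear peaks with a score of 3100 or more and a width below 2000 bp. The rule found 549 of the 6421 nuclear peaks of that list (8.55%), or 52.8% of the 1040 peaks with such a score, and they cover 0.788 Mb or 0.786% of the nuclear genome. The nuclear peaks of all 3 deposited lists together number 16811. Positions are WS220 coordinates.

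The series holds 2 ChIP samples and 2 samples of input DNA, all from hermaphrodite Caenorhabditis elegans with the genotype fem-2(b245)III, kept at 20 degrees Celsius per the series' design text and described as young adults that contain a germline, although the growth protocol describes gravid adults. Every group carries the fem-2 allele, a mutation of a phosphatase gene that promotes male fates in worms, and no animals without it were analysed here. The titles name KLE-2 with the antibody code SDQ3898, whereas the antibody record of the same samples names CEC-1 with SDQ2901, so the immunoprecipitated protein is not named here. Whether the replicates came from separate cultures is not stated. Input lists, read counts and signal tracks were not analysed here. The depth behind each peak is therefore unknown, and no value below is a ratio of ChIP to input.

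KLE-2 is a subunit of condensin II, a ring-shaped complex that loops and compacts chromosomes for mitosis and meiosis. In C. elegans a related condensin is loaded on both X chromosomes of hermaphrodites and lowers their transcription. CEC-1 has a chromodomain, a fold that reads methylated lysines on histone tails. On worm autosomes the arms are rich in repeats and repressive histone methylation, and the centres are rich in broadly expressed genes.

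Most of the sites share a single score, which is not the highest of the list. A score of exactly 3100 was given to 527 of the 549 sites (96.0%), and the other 22 ranged up to 3233.06. No source used here gives the scale of this score, and a value above 3100 need not mean a stronger peak. The narrow peaks just below the limit scored 3084.92, 3085.77, 3088.85, 3096.48 and 3098.5. In width the sites ran from 747 bp to 1 bp below the limit, with a median of 1431 bp and an interquartile range of 1204 to 1677 bp. The sites next to the width limit measured 1992, 1994, 1996 and 1998 bp, and the first peaks of the same score beyond it measured 2002, 2003, 2004, 2009 and 2010 bp. These values chose the sites and are given as a description. The sites were set against the 5099 lower-scored narrow peaks of replicate 2 (median width 887 bp, median score 282) and against its 491 wide peaks of the same score, which measured 2000 bp or more (median 2841 bp).

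Most of the narrow limit-score sites were also peaks in replicate 1, a list that the rule did not use. At least 1 bp was shared with a replicate 1 peak at 319 of 549 sites (58.1%, exact 95% binomial interval 53.9 to 62.3%), against 287 of 5099 lower-scored narrow peaks (5.63%, 5.01 to 6.30%) and 16.3% of all nuclear replicate 2 peaks. The difference of 52.5 percentage points passed Fisher's exact test (two-sided, adjusted p = 2.03e-195). Peaks are not replicates of a condition and lie close to each other, so p-values from counts of peaks are too small here and in what follows. The sites took up 321 of the 1178 replicate 1 peaks (27.2%), with 2 sites touching a pair of them and no replicate 1 peak reaching more than 1 site.

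The difference was present at every width within the narrow class. Between 1000 and 1249 bp a replicate 1 peak lay on 75 of 132 sites (56.8%) and on 69 of 917 lower-scored peaks (7.52%). From 1750 bp up to the limit it lay on 61 of 99 sites (61.6%) and on 18 of 156 lower-scored peaks (11.5%). Only 36 sites were narrower than 1000 bp, and 18 of these (50%, interval 32.9 to 67.1%) had a replicate 1 peak, against 104 of 3235 lower-scored peaks (3.21%). The intervals of the sites overlapped across all 5 width bins. With both groups restricted to widths of 1000 bp and above the difference was 48.9 points (Fisher's exact p = 1.06e-112 unadjusted).

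**Figure D1:**
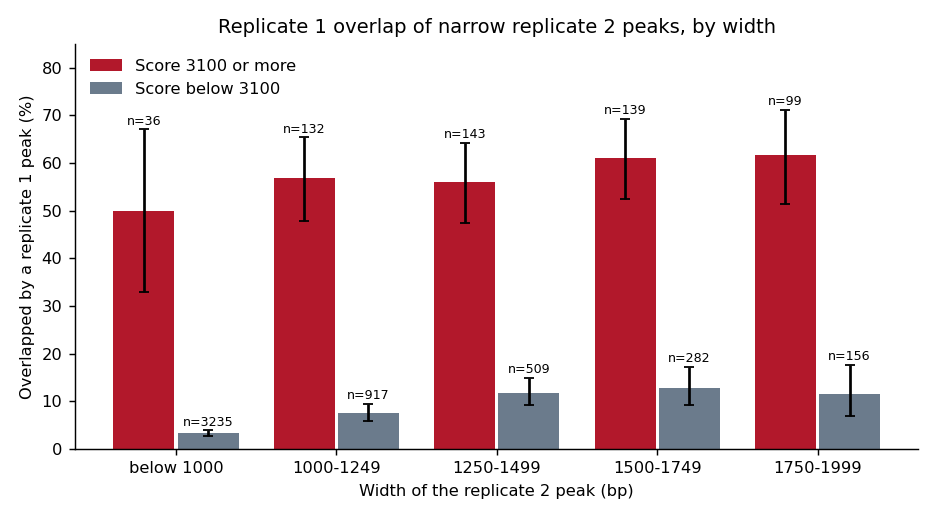
Share of narrow replicate 2 peaks that share 1 bp or more with a replicate 1 peak (y axis, percent) in 5 width bins (x axis, bp), with narrow limit-score sites in red on the left and lower-scored narrow peaks in grey on the right. Bars are shares with exact 95% binomial intervals; the sites lie between 50% and 61.6%, and the lower-scored peaks between 3.21% and 12.8%.

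Below 3100 the replicate 1 share climbed with the replicate 2 score, and the sites stood above the last class under that score. It was 1.48% in 1147 narrow peaks scoring from 50 to 100, 5.59% in 1395 scoring from 300 to 1000, and 13.0% in 725 scoring from 1000 to 2000. In the 304 peaks from 2000 to 3000 it was 16.1% (12.2 to 20.7%). The 28 peaks from 3000 to 3100 had 9 with a replicate 1 peak (32.1%, 15.9 to 52.4%), an interval that ends below that of the sites. Against all narrow peaks from 2000 to the limit the sites were 40.6 points higher (Fisher's exact p = 5.15e-34 unadjusted). Of the 22 sites scored above 3100, 11 had a replicate 1 peak.

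**Figure D2:**
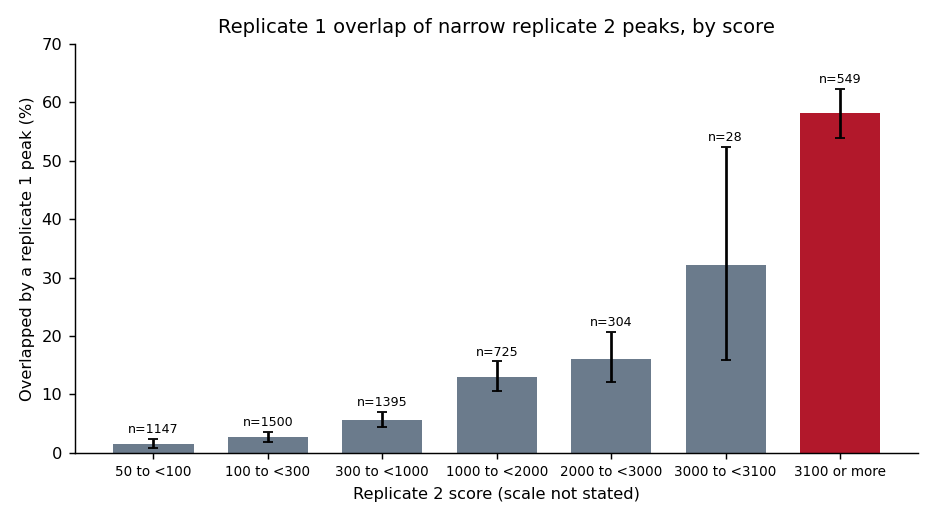
Share of narrow replicate 2 peaks overlapped by a replicate 1 peak (y axis, percent, with exact 95% binomial intervals) by replicate 2 score class (x axis, low to high). Grey bars run from 1.48% to 32.1% below the limit, and the red bar of the narrow limit-score sites stands at 58.1%.

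Wide peaks of the same score were overlapped by replicate 1 more often than the narrow sites when 1 bp sufficed. The shares were 58.1% of the 549 sites and 74.9% of the 491 wide peaks (368 peaks), a difference of -16.8 points (Fisher's exact test, adjusted p = 3.11e-08). Both this criterion and the next depend on width, since a wide peak has more bases that can be touched and also needs more bases covered. The part of width in the difference was not tested. When replicate 1 had to cover at least 50% of the peak, the order turned round, with 309 of the 549 sites (56.3%) against 48.1% of the wide peaks (difference 8.22 points, Fisher's exact p = 0.00899 unadjusted). With the midpoint inside a replicate 1 peak as the criterion, 314 sites (57.2%) and 58.5% of the wide peaks met it, and that difference did not pass the test (p = 0.706, Fisher's exact).

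Replicate 1 placed its peaks close to the same centre. The midpoints of a site and of its replicate 1 peak were a median of 92.5 bp apart (interquartile range 42.5 to 199 bp, n = 319 sites). They were within 100 bp at 169 sites (53.0%) and within 250 bp at 262 (82.1%), and more than 500 bp apart at 17. At the lower-scored narrow peaks with a replicate 1 peak the median distance was 112 bp (42.8 to 276 bp, n = 287), and at wide peaks of the same score it was 358 bp (n = 368). Narrower peaks leave less room for distance, and the differences were not tested. Replicate 1 peaks on the sites had a median width of 1128 bp and were narrower than the site itself in 235 of 319 cases. Their median width was 1078 bp on lower-scored narrow peaks, which had a median of 887 bp themselves, and 1220.5 bp in the whole replicate 1 list. The largest distance was 2567.5 bp, at chromosome II from 13817208 to 13819061, where the replicate 1 peak extended over 6689 bp. At chromosome IV from 11339323 to 11341260 the replicate 1 peak extended over 5692 bp and its midpoint lay 1910 bp away.

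**Figure D3:**
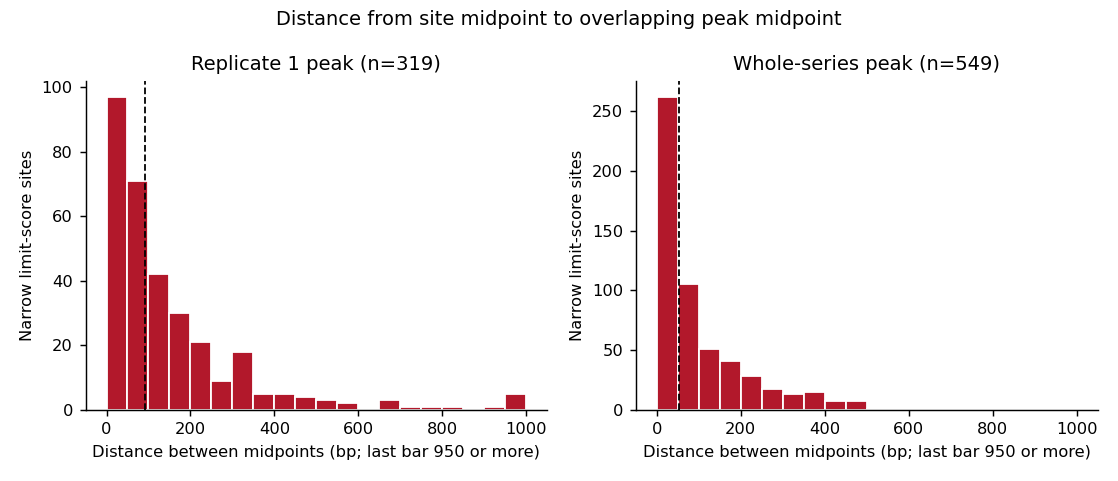
Distance in bp (x axis) from the midpoint of each narrow limit-score site to the midpoint of its highest-scored overlapping peak in replicate 1 (left panel, 319 sites) and in the whole-series list (right panel, 549 sites), as a count of sites in bins (y axis). Dashed lines mark the medians of 92.5 bp and 54 bp; the last bar collects all larger distances.

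The replicate 1 scores at the sites spanned nearly the whole range of that list. They ran from 51.5 to 3100 with a median of 185 (interquartile range 97.4 to 425), against a median of 94.5 at the 287 lower-scored narrow peaks with a replicate 1 peak and 282 at the 368 wide peaks of the same score with one. In rank the median site stood at the 58.0th percentile of the replicate 1 list, and 128 of 319 (40.1%) were in its lower 50%. A replicate 1 score below 100 was given at 85 sites and one of 1000 or more at 38. A score of 3100 or more was given to 46 replicate 1 peaks, of which 9 lay on the sites (19.6%). That share is below the 27.2% of all 1178 replicate 1 peaks that lay on the sites, a difference not tested.

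The highest replicate 1 score at the sites, 3100, was shared by 9 replicate 1 peaks on them. Those with the lower whole-series scores, on I and IV, are not named here. The 5 named sites, all at 3100 in both replicates, were placed on chromosomes IV, X and I and were taken from this tie by whole-series score. Those on X lay from 1503359 to 1505278 and from 2002485 to 2004189, and their replicate 1 peaks were 1841 and 1706 bp wide, nearly the widths of 1920 and 1705 bp in replicate 2. On I they lay from 14686139 to 14687676 and from 13600346 to 13602004. The replicate 1 peak of the last was centred 2.5 bp from the site. The fifth is the site on IV with the 5692 bp replicate 1 peak described above.

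Every site met at least 1 peak of the list for the whole series, which may hold the reads of replicate 2 and is given as a description. A whole-series peak shared at least 1 bp with 549 of 549 sites (100%, 99.3 to 100%), against 4201 of 5099 lower-scored narrow peaks (82.4%) and 85.8% of all nuclear replicate 2 peaks. This was not particular to the sites. All 491 wide peaks of the same score met one, as did 100% of the narrow peaks scoring from 1000 to the limit. Most sites, 475 of 549 (86.5%), met 1 whole-series peak, 69 met 2 and 5 met 3. The share that met 2 or more was 13.5% of the sites, against 8.59% of the lower-scored narrow peaks, 65.0% of the wide peaks of the same score and 16.0% of all nuclear replicate 2 peaks. The strongest whole-series peak on a site was narrower than the site at 541 of 549, with a median width of 664 bp (interquartile range 531 to 896 bp), and its midpoint lay a median of 54 bp away. This was not particular to the sites. At lower-scored narrow peaks (median 887 bp) the whole-series peak had a median width of 321 bp and lay 45.5 bp away. At all nuclear replicate 2 peaks (median 987 bp) the values were 374 and 55.5 bp. The series list also came from another version of the caller. Whole-series peaks together covered a median of 52.3% of the bases of a site and 54.9% of those of wide peaks of the same score. At lower-scored narrow peaks it was 33.1%, with the 898 that met no whole-series peak counted as 0.

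The whole-series list still ordered the sites, most of which replicate 2 had put at 1 value. The strongest whole-series score at a site ran from 31.0 to 246.31, with a median of 119 (interquartile range 94.5 to 159). At lower-scored narrow peaks with a whole-series peak the median was 14.5, and at wide peaks of the same score it was 128. In the top 10% of whole-series scores lay 440 of the sites (80.1%), and the sites took up 441 of the 922 whole-series peaks in that class (47.8%). The median percentile in the whole-series list was 93.997 at the sites and 94.637 at wide peaks of the same score. A high rank was therefore not particular to the sites. The median percentile was 59.4 at lower-scored narrow peaks and 67.7 at all nuclear replicate 2 peaks, counting only peaks that met a whole-series peak. Across the 549 sites width and whole-series score were unrelated in rank (Spearman's rho = 0.0015, across sites, not samples).

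The share of sites with a replicate 1 peak followed the whole-series score. With the sites divided into 4 equal groups by whole-series score, the share with a replicate 1 peak was 40.6% (32.3 to 49.3%) in the lowest, 51.8% and 57.2% in the middle groups, and 83.1% (75.7 to 89.0%) in the highest. The whole-series list may contain the replicate 1 reads, so the lists are not independent. The 319 sites with a replicate 1 peak had a median whole-series score of 134 and a median width of 1475 bp, and the 230 without had 108 and 1379 bp. Among the sites with a replicate 1 peak, replicate 1 and whole-series scores were related with a Spearman's rho of 0.40 and a Pearson's r of 0.18 (n = 319 sites, a description).

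**Figure D4:**
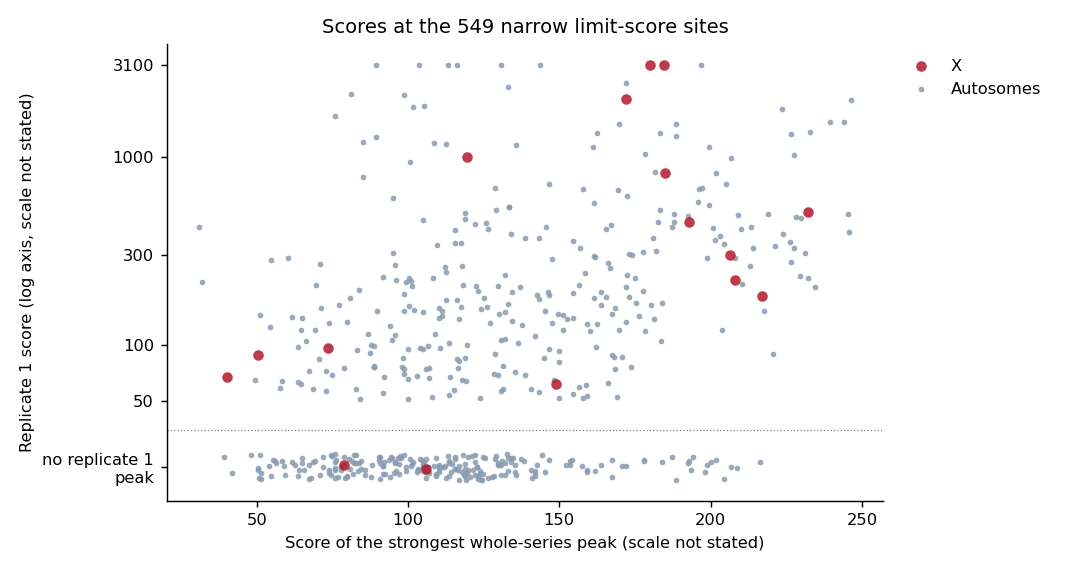
Score of the strongest whole-series peak (x axis) and replicate 1 score (y axis, log scale) at each of the 549 narrow limit-score sites, with the 16 sites on X in red and the autosomal sites in blue-grey; scales of both scores are not stated. The 230 sites with no replicate 1 peak are drawn in a strip below the dotted line, spread vertically only for legibility, and thin out toward high whole-series scores.

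Among sites found in all lists, the 10 with the highest whole-series score lay on I, III, IV, V and X. The highest was on IV from 9195900 to 9197721, with a whole-series score of 246.31, a replicate 1 score of 2000 and 3 whole-series peaks within its 1822 bp. It was followed by IV from 12403729 to 12405392 (245.83, with 400 in replicate 1) and V from 10896432 to 10898003 (245.34, with 497 in replicate 1). Chromosome V held 5 of the 10, and X had the site from 14723187 to 14724957, with a whole-series score of 232.24 and 507 in replicate 1. Their replicate 1 scores ranged from 204 to 2000, which is from percentile 61.3 to percentile 94.5 of that list.

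The sites with the highest replicate 2 scores are given as a description, since a value above 3100 need not mean a stronger peak. The 5 sites with the highest replicate 2 score, from 3197.08 to 3233.06, had whole-series scores between 75.9 and 103, all below the median of the sites. The highest, on IV from 14956295 to 14957624, had no replicate 1 peak and a whole-series score of 75.89. Only the fifth, on II from 8014525 to 8016461, had a replicate 1 peak, with a score of 228.

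The narrowest site, on V from 4375893 to 4376639, measured 747 bp in replicate 2, 880 bp in replicate 1 and 330 bp in the whole-series list, with scores of 3155.37, 74.8 and 106.09. The site on I from 21960 to 22766 measured 807 bp in replicate 2, 1036 bp in replicate 1 and 370 bp in the whole-series list. It is also the first site on I, near the left end of the chromosome. The sites on II from 1661099 to 1661861 (763 bp) and from 15076494 to 15077342 (849 bp) had no replicate 1 peak, and their whole-series scores of 114.56 and 142.63 were near the median of the sites and above it.

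Each autosome held between 95 and 121 sites, and X held 16. There were 121 on I, 107 on II, 103 on III, 107 on IV and 95 on V. Per Mb this was 8.03 on I, 7.003 on II, 7.47 on III, 6.12 on IV, 4.54 on V and 0.903 on X. As a share of the replicate 2 peaks of each chromosome the sites made up between 8.21% on III and 10.2% on II of the autosomal lists, and 3.19% on X. The median 1 Mb window held 6 sites on autosomes (85 windows) and 0.5 on X (18 windows), and the fullest, on I from 3000001 to 4000000, held 19.

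The density of the sites on X was 0.14 times that on autosomes, against 0.46 times for lower-scored narrow peaks. X held 16 of 549 sites (2.91%, 1.67 to 4.69%), against 461 of 5099 lower-scored narrow peaks (9.04%, 8.27 to 9.86%), 7.82% of all nuclear replicate 2 peaks and 17.7% of the genome length. The difference of -6.13 points passed Fisher's exact test (adjusted p = 1.31e-07). The same rule applied to replicate 1 found 7 peaks, 2 of them on X (28.6%, against 4.03% of its 943 lower-scored narrow peaks), which turns the direction and was not tested. The test was not passed against peaks of like width or score. At widths of 1000 bp and above, X held 3.12% of the sites and 3.76% of the lower-scored peaks (Fisher's exact p = 0.593 unadjusted). Of the 461 lower-scored narrow peaks on X, 391 were narrower than 1000 bp, as were 3235 of all 5099. The part of width in the X difference was not tested. Against narrow peaks from 2000 to the limit, 3.31% of which lay on X, the p was 0.841 (Fisher's exact), and against wide peaks of the same score, with 16 of 491 on X (3.26%), the adjusted p was 0.858 (Fisher's exact).

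The 16 sites on X were wide for the group, and most of them recurred in replicate 1. Their median width was 1683 bp, against 1421 bp on autosomes, and 14 of 16 had a replicate 1 peak (87.5%, interval 61.7 to 98.4%), against 305 of 533 on autosomes (57.2%, 52.9 to 61.5%). Median replicate 1 scores were 376 on X and 180 on autosomes, and median whole-series scores were 176 on X and 119 on autosomes. This comparison was drawn up after the values were seen and was not tested. The X sites were divided among the left arm (6), the centre (4) and the right arm (6).

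On the left arm of X the sites from 161013 to 162210 and from 168314 to 170234 were neighbours, with replicate 1 scores of 61.9 and 2032. In the centre the sites from 5227571 to 5228829 and from 5229251 to 5230814 were 421 bp apart, and only the second had a replicate 1 peak (score 95.7). After them no site occurred for 5.34 Mb, up to the one from 10568079 to 10569391, although 133 other replicate 2 peaks lay in between. That site was the most isolated of the 549, 1.95 Mb from its nearest neighbour, with a whole-series score of 50.55 and a replicate 1 score of 88.5. On the right arm replicate 1 scores of 1002, 817 and 449 were given to the sites from 15634735 to 15636507, from 16100043 to 16101993 and from 16850896 to 16852551. Those from 14361710 to 14363497 and from 14723187 to 14724957 had 221 and 507. The site from 14936942 to 14938174 had no replicate 1 peak.

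**Figure D5:**
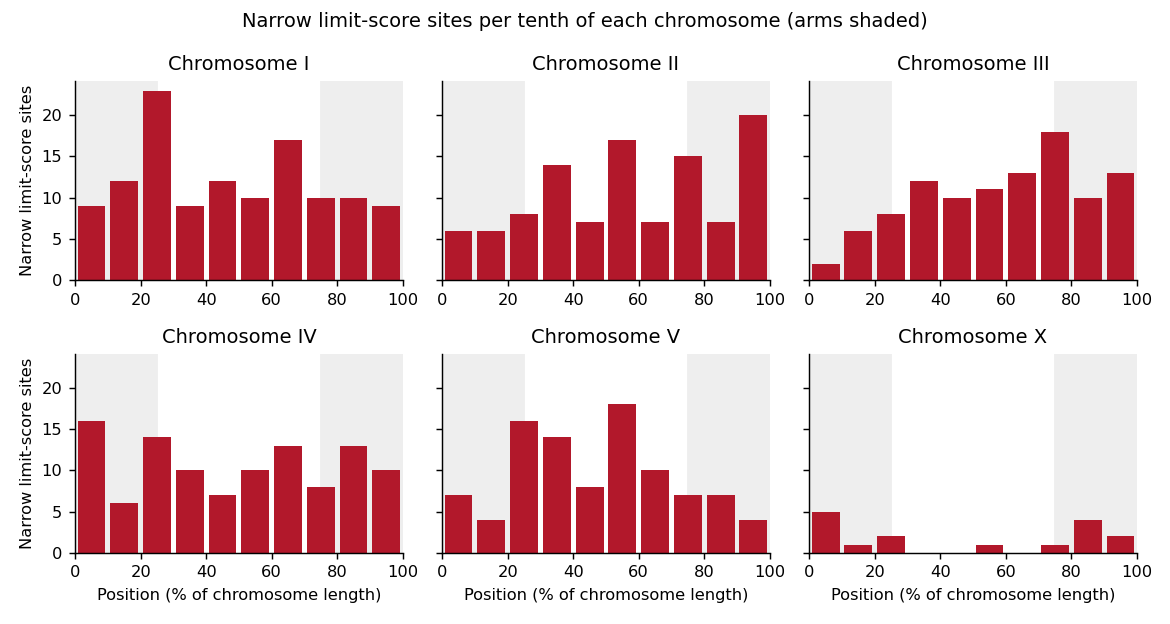
Count of narrow limit-score sites (y axis) in 10 equal parts of the length of the 6 chromosomes (x axis, percent of length from the left end), with the arms, the outer 25% at each end, shaded. Chromosome I peaks at 23 sites between 20 and 30% of its length and II at 20 in its last 10%, while X has 16 sites in all.

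The arm share of the sites did not differ from that of either comparison group by a margin that passed the test. Of 533 autosomal sites 245 (46.0%, 41.7 to 50.3%) had their midpoint on an arm, against 2317 of 4638 lower-scored narrow peaks (49.96%, 48.5 to 51.4%), 236 of 475 wide peaks of the same score (49.7%, 45.1 to 54.3%) and 49.3% of all autosomal replicate 2 peaks. The differences of -3.99 and -3.72 points had adjusted p-values of 0.124 and 0.307 (Fisher's exact test). The 46.0% of the sites stood 6.09 points above the 39.9% of narrow peaks from 2000 to the limit (Fisher's exact p = 0.0876 unadjusted).

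The chromosomes differed from each other in which arm held the sites. Chromosome III had 13 sites on its left arm and 37 on its right, and II had 14 and 33. Chromosome I had more on the left, 36 against 23, while IV had 28 on each arm. Lower-scored narrow peaks numbered 201 on the left and 296 on the right arm of III, 164 and 246 on II, and 322 and 239 on I, so they leaned as the sites did on these 3. On IV they numbered 254 and 188, whereas the sites were even. On V the sites had the lowest arm share of any chromosome, 34.7% (18 on the left and 15 on the right), against 47.3% of the lower-scored narrow peaks of V (196 on the left and 211 on the right). On X it was 75% (47.6 to 92.7%), against 55.5% of the lower-scored narrow peaks of X. These chromosome by chromosome values were not tested.

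Most sites had no other site within 10 kb, while replicate 2 peaks of any kind were about as near as they were for other replicate 2 peaks. The median gap to the nearest other site was 43.1 kb (interquartile range 16.5 to 100.1 kb), and 97 of 549 sites (17.7%) had another within 10 kb. Whether this spacing differs from that of sites placed at random was not tested. The nearest replicate 2 peak of any kind, other sites included, was a median of 1896 bp away, against 2125 bp for all nuclear replicate 2 peaks. Such a peak lay within 2000 bp of 280 sites (51.0%) and of 47.7% of lower-scored narrow peaks. The shares were 51.7% for wide peaks of the same score and 48.9% for all nuclear replicate 2 peaks. A wide peak of the same score was within 10 kb of 85 sites (15.5%), against 15.8% of lower-scored narrow peaks.

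Grouped by gaps below 10 kb, 452 sites were alone, 41 groups held 2 and 5 groups held 3. No larger group occurred. The longest of the groups of 3 extended over 13671 bp on the left arm of I from 2421237 to 2434907, and only 1 of its sites had a replicate 1 peak. In the group on IV from 4720202 to 4728511 all 3 had one, with replicate 1 scores from 289 to 1325 and whole-series scores from 188 to 227. The groups on II from 13817208 to 13830132 and from 14999917 to 15011304 also had a replicate 1 peak at all 3 sites, and that on V from 6296097 to 6300548 at 2 of them.

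Stretches without a site included parts of the arms of V and III. The longest on an autosome was 1.85 Mb on the right arm of V, from 17922119 to 19770543, which held 95 other replicate 2 peaks. On III no site lay between 87949 and 1142163, near the left end, where 52 other replicate 2 peaks were called. The site before that stretch, from 86073 to 87949, was the most isolated of its chromosome and had a replicate 1 score of 94.9 and a whole-series score of 146.54. Other isolated sites included V from 2600382 to 2601297, which was 591 kb from the next, had a whole-series score of 216.4 and had no replicate 1 peak, and II from 7478393 to 7479588, with a replicate 1 score of 566.

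Sites that the whole-series list divided were a minority. The 5 sites with 3 whole-series peaks were 1690 to 1992 bp wide and lay on I from 9568762 to 9570583, III from 2803817 to 2805808, IV from 5666041 to 5667730 and from 9195900 to 9197721, and V from 9382191 to 9383892. Of these the second site on IV and the one on V had a replicate 1 peak. Among the sites with a replicate 1 peak 11.6% met 2 or more whole-series peaks, and among those without one 16.1%, a difference that was not tested.

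On the autosomes the share of sites with a replicate 1 peak lay between 52.4% and 62.6%. It was 53.7% on I, 61.7% on II, 52.4% on III, 62.6% on IV and 55.8% on V, and the intervals of all 5 overlapped (42.4 to 62.4% on III, the lowest, and 52.7 to 71.8% on IV, the highest). Median replicate 1 scores at the sites ranged from 127 on III to 291 on IV. Lower-scored narrow peaks had a replicate 1 peak in 4.68% of cases on III and 7.91% on V, the extremes of the autosomes, and in 3.90% on X.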

How the data were processed

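ChIP-seq was run on 2 ChIP and 2 input samples. The authors deposited 1 peak list per ChIP sample and 1 for the series, each peak with a score whose scale is not stated. Per the submitters' processing notes the aligner was BWA and the build ce10, which the file headers call WS220. Per the file contents the callers were MACS for the replicates and MACS v2 for the series. Thresholds, the input used and any pooling are not given in the sources used here. Depth is unknown. Duplicate and multiply aligned reads could move any peak's score.

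Overlaps (1 bp or more), gaps, arms (outer 25% of the length at each end, by midpoint) and shares were computed with Python 3.11.15, pandas 2.3.3 and scipy 1.17.1. The overlap and test code was checked on simulated lists, the overlaps against bedtools 2.31.1. Chromosome lengths were entered as a setting, and the highest peak ends reached at least 99.9% of them, on I passing the entered length by 4 bp. The 2 mitochondrial peaks of the series list were left out. Shares have exact (Clopper-Pearson) 95% intervals, which cover counting error only. The Fisher tests of the 3 measures against 2 groups of peaks (6 in all) were two-sided and Benjamini-Hochberg adjusted. Each replicate has 1 list, so no test across samples was made.

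Sites named were taken by rule: the extremes of whole-series, replicate 1 and replicate 2 score, of width, of the number of whole-series peaks and of isolation, and the largest groups. Where groups tied, all are given. The 16 sites on X were described after their values were seen. The sites, lists and tests were chosen with earlier results of these data known. No genome sequence or gene annotation of WS220 was used here, so sites carry no gene names.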

Additional observations from a re-analysis of the deposited data

How the results depend on the processing

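No paired analysis was possible because each ChIP replicate gave 1 list of peaks, the rule used only that of replicate 2, and no input list was used. Of 33 alternatives, 22 kept the direction and outcome. Every alternative of the replicate 1 overlap against lower-scored narrow peaks did so, with differences of 33.2 to 52.8 points. The values below are percentage points, sites minus the other group, with causes not tested unless given. Against wide peaks the replicate 1 overlap reversed to 8.22 when 50% of the peak had to be covered and was -1.26 with the midpoint inside. The X difference lost its test against scores of 2000 to the limit (-0.40) and at widths of 1000 bp and above (-0.64, chosen after the data were seen). Without replicate 2, the same rule in replicate 1 found only 7 peaks, 2 of them on X (28.6% against 4.03%, a difference of 24.5 points, no test). The autosomal arm difference, which passed no test, changed to 6.09 against scores of 2000 to the limit and to 0.46 against wide peaks with the width limit at 1500 bp. A whole-series peak covered at least 50% of 57.6% of the sites instead of touching 100%. The share of sites with another site nearby was 12.9% within 5 kb and 29.5% within 20 kb, and 9.003% within 10 kb for sites below 1500 bp, which leaves fewer sites. Unknown depth limits every statement that a peak was absent from a list.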

Other observations

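The limiting score was rarer in replicate 1, where 46 peaks reached 3100 and 7 of these were narrower than 2000 bp. All 7 were overlapped by a replicate 2 peak, as were all but 108 of the 1178 replicate 1 peaks. Of the 7, 5 lay on the narrow limit-score sites, as did 27.2% of all replicate 1 peaks, a difference not tested. The 321 replicate 1 peaks on the sites had a median score of 185, against 149 for the 749 on other replicate 2 peaks only and 72.2 for the 108 on no replicate 2 peak. A replicate 1 peak lay on 58.1% of the sites, against 25.9% (20.9 to 31.4%) of the 282 wide replicate 2 peaks with a score below the limit, a difference seen after the fact and not tested.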
